A study of Mus musculus with 12 samples.

Results

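The genes Smcp, Gpx4, Txnrd3, Txndc2, Txndc8 and Prdx4 encode selenium and thiol proteins of the spermatid, several of them tied to the mitochondrial sheath of the sperm midpiece. Their members were taken as every contig whose deposited gene symbol is one of these 6, where a contig is 1 reference transcript to which reads were assigned. This gave 14 contigs of 12114, and 13 of them passed the filter on low counts and were tested among 11831 contigs. The remaining one, Prdx4-203, had 0 to 5 reads in a library.

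The mitochondrial sheath is a helix of mitochondria around the midpiece of the flagellum, and its outer wall is held together by disulphide bonds and by selenium. Selenocysteine is inserted where a UGA codon, otherwise a stop, is read with the help of a hairpin in the same mRNA. Thioredoxins reduce disulphides through a Cys-Gly-Pro-Cys active site, thioredoxin reductases recharge them, and peroxidases use thiols to remove peroxides. In late spermatids this chemistry turns from reduction towards the cross-linking of proteins that lasts into the mature sperm.

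Direct RNA sequencing on a nanopore reads the native poly(A) RNA strand itself, so that 1 read is 1 molecule. The study's methods state that a cDNA strand was made on the RNA beforehand. The 12 libraries came from adult mouse testis and made 4 groups of 3. Round spermatids (RS) are young haploid cells and elongated spermatids (ES) are at a later step, with condensing nuclei. Each stage was taken from Tent5c wt/wt males and from Tent5c dcat/dcat males. The dcat allele makes a catalytically inactive TENT5C, a poly(A) polymerase, and is present in the whole animal. Each library was a pool of RNA from 3 mice, so that the p-values measure the spread between pools. The study's methods state that all cell types were sorted from the same animals, and that a sorting session held a mouse of each genotype. They do not state which pools hold which animals. The counts of Tent5c itself do not check the genotype labels, since the labels describe an inactive protein and not a missing transcript. The cells were sorted on DNA content, red fluorescence and light scatter, which enriches a stage and does not purify it.

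Total counts ran from 337287 to 1359427 reads per library. Elongated spermatid markers fitted the stage labels: 8 of their 9 contigs rose in ES. Their summed level was 18349.5 to 40238 CPM (scaled reads, as below) in RS libraries and 204367 to 273446 in ES libraries. Of 9 contigs of round spermatid acrosome genes 3 fell in each genotype, and of 15 contigs of 7 meiotic genes 5 fell in wt/wt and 4 in dcat/dcat. Of all contigs 16.5% and 16.9% fell. The acrosome genes summed to 968 to 1074 CPM in RS and 505 to 626 in ES. The meiotic genes summed to 623 to 879 in RS and 350 to 484 in ES, with Dmc1, Meiob and Msh4 in no contig. Markers of somatic cells rose. The summed level of 6 Leydig cell genes was 15.0 to 45.5 CPM in RS libraries and 255 to 1015 in ES libraries, with Hsd3b1, Hsd3b6, Lhcgr and Star in no contig of the table. That of 4 Sertoli cell genes was 6.41 to 38.0 in RS and 191 to 372 in ES, with Amh, Gata4, Rhox5, Sox9, Trf and Wt1 in no contig. These levels moved with every stage difference given here, and their part in them was not tested. Fewer cells of a type and less RNA per cell cannot be told apart in such libraries.

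The libraries numbered 1 stood apart in all 4 groups in how the reads of a gene divided among its contigs. In 205 of 704 genes with several contigs and at least 50 reads in every library, the contig with the most reads took a larger share in each of the 4 libraries numbered 1 than in any of the other 8 (29.1%), and in 15 genes (2.13%) a smaller one. Smcp, Gpx4 and Txnrd3 were among the first set. Stage results are therefore given for single contigs and for the summed contigs of each gene, and results that changed without the libraries numbered 1 are given with and without them.

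The coding features that give these proteins their chemistry are shown as the reference transcripts hold them on build GRCm38, all inside coding exons. For Gpx4-202 the capitals mark the selenocysteine codon, codon 73 of 197 (chr10:80054724-80054753, plus strand). For Txnrd3-201 they mark the selenocysteine codon next to the C terminus, codon 614 of 615 (chr6:89674776-89674805, plus strand). For Txndc2-201 (chr17:65637732-65637761, minus strand) and Txndc8-201 (chr4:58007090-58007119, minus strand) they mark the 4 codons of the Cys-Gly-Pro-Cys site, which were the same 12 bases in both genes. For Prdx4-201 they mark the codon of the peroxidatic cysteine, and these 30 bases cross an exon junction (chrX:155332446-155334840, minus strand). For Smcp-201 they mark cysteine codons, 5 of 10 in this stretch (chr3:92584293-92584322, minus strand).
Gpx4-202: cgtggcctcgcaaTGAggcaaaactgacgt
Txnrd3-201: tcagaaaggctgcTGAggctagccctgctg
Txndc2-201: gccgcttggTGTGGCCCCTGCagaatgatg
Txndc8-201: gcaaagtggTGTGGCCCCTGCaaaacaatt
Prdx4-201: tttcacctttgtgTGTccaactgaaatcat
Smcp-201: ccaTGCTGCccacagaagTGTtcgTGCTGC

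Cysteine took 32 of the 143 codons of Smcp (22.4%), with 11 pairs of neighbouring cysteine codons. In the other 5 genes the share ran from 0.727% (4 of 550 codons, Txndc2) to 5.08% (10 of 197, Gpx4). Among the 6 leading transcripts, the Cys-Gly-Pro-Cys codons were found in the reading frames of Txndc2 and Txndc8, once in each.

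The first comparison was of ES with RS. Reads on 5 of the 6 genes rose in both genotypes, and those on Txnrd3 fell. Contigs were summed by gene symbol, and a contig without a symbol was kept by itself, which gave 7706 sums tested. Of the 6 genes, Prdx4 rose most (log2 3.49, SE 0.5255, edgeR q 1.4e-05 in wt/wt), followed by Txndc2 (2.60), Smcp (2.59), Txndc8 (1.56) and Gpx4 (1.38), while Txnrd3 changed by -0.68 (q 0.0023). Over all sums tested, 26.1% rose and 22.9% fell in wt/wt, with a median log2 change of -0.22. In dcat/dcat the changes were 3.57 for Prdx4, 2.54 for Txndc2, 2.59 for Smcp, 1.49 for Txndc8, 1.20 for Gpx4 and -0.66 for Txnrd3, all past the same threshold, beside 26.4% risen and 22.8% fallen overall. Without the libraries numbered 1, all 6 sums were still called, beside 3057 of all 6789 sums in wt/wt and 3147 in dcat/dcat. The wt/wt changes were then 2.39 for Smcp and 2.35 for Txndc2, with an edgeR q of 1.4e-08 for Txndc8. Those of dcat/dcat libraries were 2.45 for Smcp, 2.43 for Txndc2 and 1.36 for Txndc8, and the other genes are given below. Together the 6 genes took 0.489% to 0.553% of all counts in the RS libraries and 0.884% to 1.14% in the ES libraries.

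Of the 13 contigs tested, 10 rose and 1 fell in wt/wt, and the counts were the same in dcat/dcat. The 10 include Txndc8-203, which passed the filter only through its reads in ES dcat/dcat. Over all 11831 contigs, 23.8% rose and 16.5% fell in wt/wt. In dcat/dcat 24.0% rose and 16.9% fell. The median log2 change of the 13 contigs was 1.79 in wt/wt and 1.84 in dcat/dcat, beside -0.24 and -0.18 over all contigs. Levels below are CPM, reads scaled to a common library size after TMM normalization for library composition, and group values are mean ± SD over n = 3 libraries. Scaling by total counts alone moved the median of all contigs from -0.24 to -0.96 in wt/wt and from -0.18 to -0.85 in dcat/dcat, and the changes of the members are to be read relative to that median. With that scaling 7 of the 13 contigs rose and 2 fell in each genotype, while of all contigs 1953 rose and 5411 fell for wt/wt libraries (2813 and 1953 with TMM). For dcat/dcat libraries 1964 rose and 4995 fell (2844 and 2005 with TMM).

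**Figure D1:**
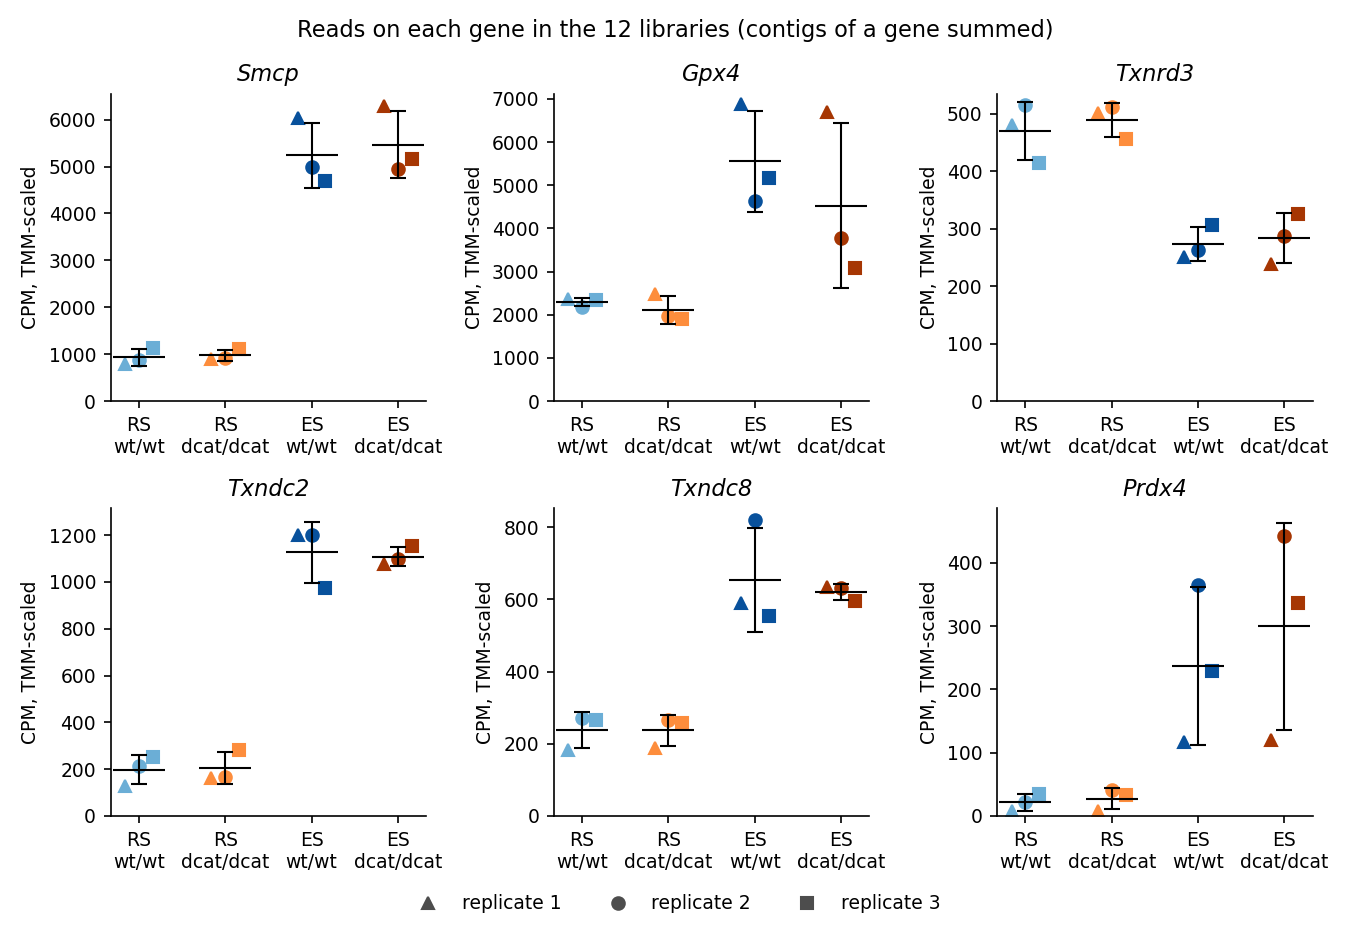
CPM after TMM scaling on each of the 6 genes (y axis, linear from 0) in the 4 groups, with the contigs of a gene summed. Each symbol is a library and its shape the replicate number; the line and bars are the mean and SD over 3 libraries. ES libraries lie above RS libraries in all genes but Txnrd3, where they lie below, and Prdx4 is lowest in the libraries numbered 1 of every group.

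Smcp encodes a cysteine- and proline-rich protein on the outer membrane of the sheath mitochondria. The gene lies on chromosome 3 (92583867 to 92588997, minus strand), and its contigs Smcp-201 and Smcp-202 differ towards the 5′ end and carry the same 429 coding bases. Summed over both, RS wt/wt libraries 1 to 3 held 787, 873 and 1139 CPM and RS dcat/dcat libraries 894, 923 and 1108. ES wt/wt libraries held 6026, 5001 and 4693, and ES dcat/dcat libraries 6281, 4958 and 5165. The lowest ES library thus stood above the highest RS library, and the genotypes overlapped within each stage. The mean rose from 933 ± 184 to 5239.9 ± 698 CPM for wt/wt libraries. For dcat/dcat libraries it rose from 975 ± 116 to 5468 ± 711. The leading contig Smcp-201 rose by log2 2.43 in wt/wt (SE 0.216, q 1.9e-06) and 2.31 in dcat/dcat (SE 0.215, q 3.4e-06). Smcp-202, with 15.0% of the gene's reads, rose by 2.93 (SE 0.560, q 0.0008) and 3.50 (SE 0.570, q 0.00023).

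Gpx4 encodes the phospholipid hydroperoxide glutathione peroxidase, a selenoenzyme that later becomes a structural part of the mitochondrial capsule. It lies on chromosome 10, plus strand, and had 4 contigs. Gpx4-202 (80053488 to 80056439), with 74.9% of the reads, carries the 591 coding bases of the form with a mitochondrial presequence. Gpx4-201 (80054037 to 80056439) starts in an alternative first exon and carries the 759 coding bases of the nuclear form of sperm. Gpx4-204 is a processed transcript without coding sequence, and Gpx4-207 is a short coding model with 121 reads in all.

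The RS wt/wt libraries held 2085, 1621 and 1799.5 CPM of Gpx4-202, and the ES wt/wt libraries 5428, 3141 and 3743. The RS dcat/dcat libraries held 2200.1, 1409.6 and 1321, and the ES dcat/dcat libraries 5221, 2284 and 1643. In wt/wt every ES library lay above every RS library. In dcat/dcat the groups overlapped, since ES library 3 lay below RS library 1. The change was 1.16 in wt/wt (SE 0.344, q 0.014) and 0.89 in dcat/dcat (SE 0.342, q 0.0497), the latter next to the threshold. Without ES dcat/dcat library 1 the dcat/dcat change was 0.26 (q 0.44). This call was also lost, at 0.74 to 0.90 and q 0.060 to 0.15, without RS wt/wt library 2 or 3, RS dcat/dcat library 2 or 3, or ES wt/wt library 3. It was lost as well with RLE size factors (q 0.054), no filter (q 0.0503), at least 10 reads in every library (0.59, q 0.13), DESeq2 (q 0.060), only the groups compared (q 0.069), robust fitting (q 0.072) and total counts. The wt/wt call was lost without RS wt/wt library 2 (1.08, q 0.054) or ES wt/wt library 1 (0.98, q 0.062). When all libraries numbered 1 were left out, the summed Gpx4 contigs still rose, by 1.25 in wt/wt (q 4.9e-08) and 0.96 in dcat/dcat (q 6.6e-06).

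The nuclear form contig Gpx4-201 was at 232 to 453 CPM in the RS libraries and 956 to 1368 CPM in the ES libraries, with no overlap between the stages. It rose by 1.68 in wt/wt (SE 0.259, q 0.00014) and 1.60 in dcat/dcat (SE 0.259, q 0.00022). Gpx4-204 rose by 1.79 (q 0.032) and 1.84 (q 0.026). Its wt/wt call was lost without RS wt/wt library 1 or 3 or ES wt/wt library 2 or 3 (1.48 to 1.78), and its dcat/dcat call without RS dcat/dcat library 1 or ES dcat/dcat library 2 or 3 (1.40 to 1.62). The edgeR wt/wt call of Gpx4-204 was also lost with robust fitting (q 0.067), at least 10 reads in every library (q 0.060) and total counts (q 0.135). In dcat/dcat it was lost with robust fitting (q 0.056) and total counts (q 0.105). Gpx4-207 had a value of 0.36 (q 0.68) and 0.94 (q 0.24). In wt/wt the sign of Gpx4-207 turned with total-count scaling.

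Counts of the single Gpx4 contigs are uncertain because of a near copy. The table holds a contig of the processed pseudogene Gpx4-ps2 with 7481 reads, and 762 of its 782 bases align to bases 198 to 959 of Gpx4-202 with 2 mismatches (99.7% identity) and no gap. The alignment takes in the selenocysteine codon, which starts 599 bases from the 3′ end of Gpx4-202. A read that stops before base 198 from the 5′ end has little sequence that tells Gpx4 from Gpx4-ps2. The Gpx4-ps2 contig took 4.86% to 8.47% of the reads on Gpx4 and Gpx4-ps2 together in the libraries numbered 1 and 17.1% to 45.0% in the other 8.

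With Gpx4-ps2 included, the RS wt/wt libraries averaged 2674 ± 174 CPM and the RS dcat/dcat libraries 2635 ± 167. The ES wt/wt libraries averaged 6977 ± 495 and the ES dcat/dcat libraries 6369 ± 826. The Gpx4 contigs alone gave 5560.0 ± 1169 and 4523 ± 1910.0 in ES, with larger SDs. In RS they gave 2292 ± 99.0 for wt/wt, a smaller SD, and 2116 ± 320.0 for dcat/dcat, a larger one. The change from RS to ES was then 1.49 in wt/wt (SE 0.152, q 8.0e-08) and 1.38 in dcat/dcat (SE 0.152, q 2.5e-07).

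**Figure D2:**
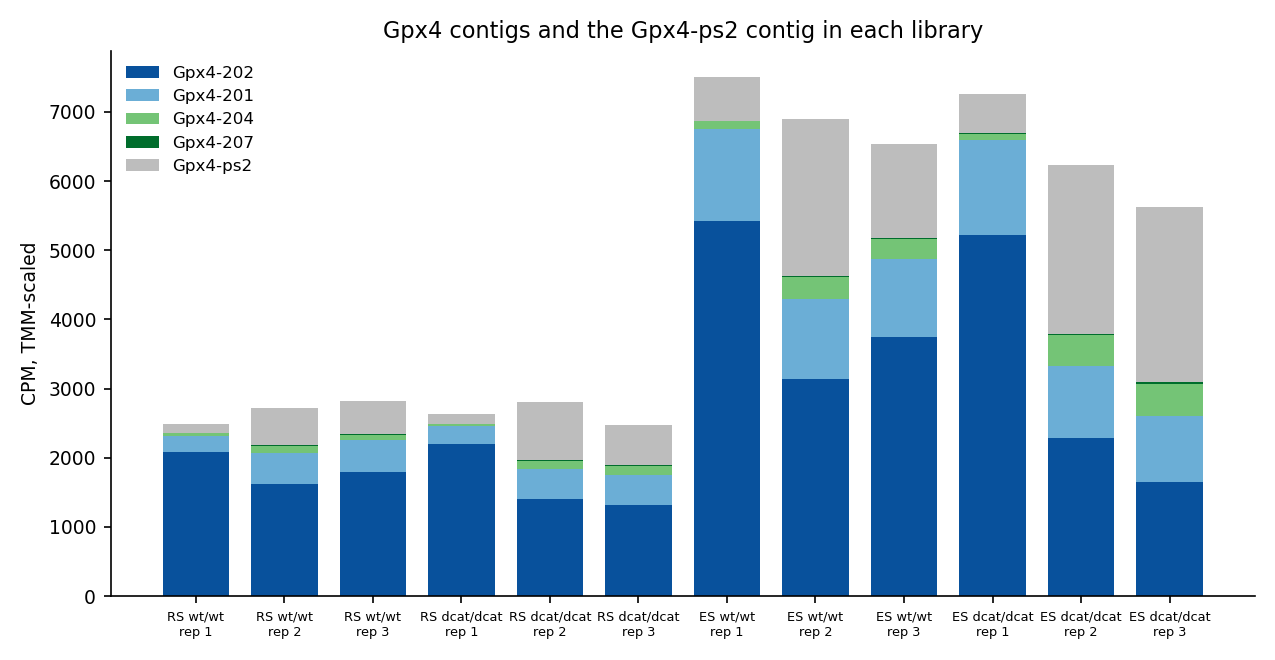
Stacked bars of CPM after TMM scaling (y axis, linear from 0) on the 4 Gpx4 contigs and on the Gpx4-ps2 contig in each of the 12 libraries. The full height is 2466 to 2817 in RS and 5623 to 7509 in ES, and the grey Gpx4-ps2 part is smallest within each group in the library numbered 1.

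Txnrd3 encodes thioredoxin-glutathione reductase, a selenoenzyme with a glutaredoxin domain that is abundant in spermatids. It lies on chromosome 6 (89643988 to 89675529, plus strand), and its contigs Txnrd3-201 and Txnrd3-202 have 16 and 14 exons. Summed over both, RS wt/wt libraries held 480.2, 516 and 415 CPM and RS dcat/dcat libraries 501, 513 and 456. ES wt/wt libraries held 251, 263 and 307, and ES dcat/dcat libraries 239, 287 and 326. All ES libraries lay below all RS libraries. The mean went from 470.4 ± 51.1 to 274 ± 29.5 CPM for wt/wt libraries. For dcat/dcat libraries it went from 489.8 ± 30.1 to 284 ± 43.6. The sum without the libraries numbered 1 changed by -0.59 in wt/wt (q 0.012) and -0.52 in dcat/dcat (q 0.021).

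The single contigs of Txnrd3 carried this less firmly. Txnrd3-201 changed by -0.74 in wt/wt (SE 0.261, q 0.035) and -0.92 in dcat/dcat (SE 0.260, q 0.011). In wt/wt its call was lost without RS library 1 (-0.49, q 0.15), RS library 2 (q 0.054), ES library 1 (q 0.099), ES library 2 (-0.52, q 0.23) or ES dcat/dcat library 3 (q 0.053). It was also lost without all libraries numbered 1 (-0.51, q 0.070) and with DESeq2 (-0.71, q 0.053), which left no member contig fallen in wt/wt. In dcat/dcat the call was lost without RS library 1 (-0.65, q 0.063) or ES library 2 (q 0.054). Txnrd3-202 had values of -0.87 (SE 0.485, q 0.17) and -0.56 (SE 0.472, q 0.36), and with the replicate number as a block they were -0.81 (q 0.0011) and -0.56 (q 0.014).

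Txndc2 encodes a thioredoxin of spermatids that is found at the fibrous sheath of the tail while it is built. It lies on chromosome 17 (65637507 to 65642168, minus strand). Summed over Txndc2-201 and Txndc2-202, RS wt/wt libraries held 129.6, 214 and 250.1 CPM and RS dcat/dcat libraries 161, 167 and 283. ES wt/wt libraries held 1202, 1202 and 975, and ES dcat/dcat libraries 1076, 1096 and 1153. Every ES library was thus over 3 times the highest RS library. Txndc2-201 rose by 2.64 in wt/wt (SE 0.230, q 1.9e-06) and 2.54 in dcat/dcat (SE 0.230, q 3.1e-06), and Txndc2-202 by 2.10 (q 0.0027) and 2.16 (q 0.0021).

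Txndc8 encodes a further thioredoxin of spermatids, seen at the Golgi and the forming acrosome. It lies on chromosome 4 (57984027 to 58009124, minus strand), and 97.8% of its reads were on Txndc8-201. The RS wt/wt libraries held 182, 270.5 and 266 CPM of both contigs and the RS dcat/dcat libraries 188, 265 and 258. The ES wt/wt libraries held 589, 819.9 and 554 and the ES dcat/dcat libraries 633, 632 and 594. The stages did not overlap. Txndc8-201 rose by 1.43 in wt/wt (SE 0.210, q 9.2e-05) and 1.36 in dcat/dcat (SE 0.210, q 0.00015). Txndc8-203, with 72 reads in all and 0 in library 2 of both RS groups, had values of 2.59 (SE 0.899, q 0.032) and 2.33 (SE 0.831, q 0.036). It passed the filter on low counts only through ES dcat/dcat (1, 17 and 11 reads), where it is high. The filter thus favoured a rise of this contig, and its calls add no evidence of one. Its wt/wt call was lost without RS wt/wt library 2 or 3 or ES wt/wt library 2 or 3 (q 0.051 to 0.098), and its dcat/dcat call without RS dcat/dcat library 1 or 2 (q 0.076 and 0.089). The wt/wt call was also lost with total counts only (q 0.083). In dcat/dcat the call was lost with total counts only and with only the groups compared.

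Prdx4 encodes a peroxiredoxin of the endoplasmic reticulum that oxidises protein disulphide isomerases and is widely expressed in other cell types. It lies on chromosome X (155323918 to 155338467, minus strand, Prdx4-201). The RS wt/wt libraries had 10, 17 and 56 reads on this contig and the RS dcat/dcat libraries 6, 29 and 36. The ES wt/wt libraries had 52, 188 and 63 and the ES dcat/dcat libraries 47, 174 and 198. After scaling, RS lay between 6.41 and 38.0 CPM and ES between 109 and 434, without overlap. It rose by 3.44 in wt/wt (SE 0.628, q 0.00056) and 3.57 in dcat/dcat (SE 0.630, q 0.00043). Without the libraries numbered 1, in which it was lowest in every group, the gene rose by 3.46 and 3.54. The Leydig and Sertoli markers given above were higher in the same ES libraries, and their part in this change was not tested. Of the 5 genes listed for macrophages and myoid cells 1 had a contig, Cd74, at 0 to 2.37 CPM in RS libraries and 40.5 to 122 in ES libraries.

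**Figure D3:**
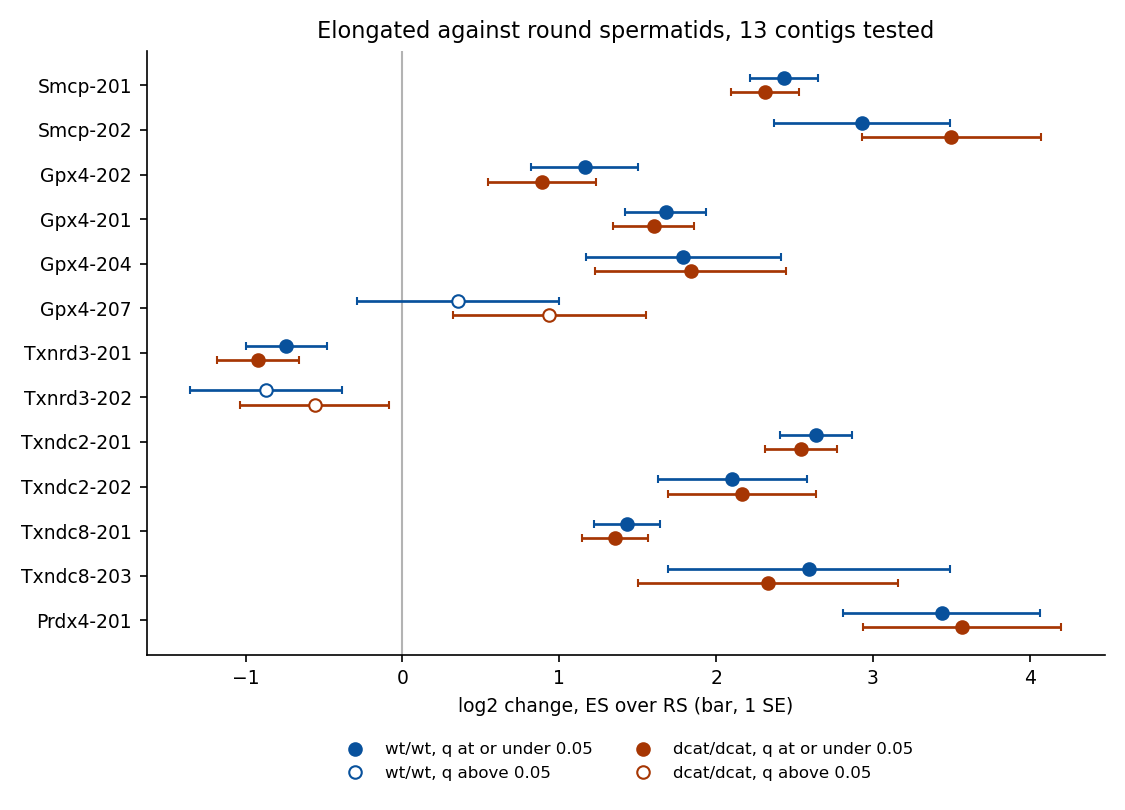
The log2 change from RS to ES (x axis, bars 1 SE) of the 13 contigs tested, in wt/wt (blue) and dcat/dcat (brown). Filled symbols have q at or under 0.05 in the edgeR fit over 11831 contigs. In both genotypes 10 contigs rose and Txnrd3-201 fell.

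The division of reads among the contigs of a gene varied with the replicate number. The leading contig of Smcp took 93.9% to 95.5% of the gene's reads in the 4 libraries numbered 1 and 67.8% to 89.9% in the other 8, that of Gpx4 78.0% to 88.6% and 53.2% to 77.0%, and that of Txnrd3 75.6% to 84.0% and 50.3% to 69.0%. For Txndc2 the ranges were 80.8% to 86.2% and 64.4% to 81.2%, and they overlapped. For Txndc8 and Prdx4 they overlapped as well. Several alternative contigs share the 3′ part of the leading one and differ from it further 5′: the 3′-most 693 bases of Smcp-201 and Smcp-202 were identical, as were 733 bases of Gpx4-202 and Gpx4-201, 494 of Gpx4-202 and Gpx4-204, 1468 of Txnrd3-201 and Txnrd3-202, and 337 of Txndc8-201 and Txndc8-203. A nanopore reads RNA from the 3′ end, so that a read ending within such a stretch does not tell the contigs apart. Read lengths were not analysed here, and their part in the shares was not tested.

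Between stages, the mean share of the leading contig moved by -7.99 percentage points in Smcp, -9.84 in Gpx4, -0.69 in Txnrd3, 5.03 in Txndc2, -1.73 in Txndc8 and 5.21 in Prdx4 (ES minus RS, average of both genotypes). None of the 6 passed an exact two-sided permutation test with stage labels permuted within genotype (400 arrangements, smallest possible p 0.005). The smallest p was 0.095, for Gpx4, and the smallest p adjusted over the 6 genes was 0.23. Compared within genotype and replicate number, the share of Smcp and of Gpx4 was lower in ES, and that of Txndc2 higher, in 6 of 6 pairs, each with an exact permutation p of 0.031, the smallest that 64 arrangements give, and 0.062 when adjusted over the 6 genes, which does not pass. These pairs include RS with ES in wt/wt, where the deviations from the group means of number 3 correlated at -0.095. The pairing by number is therefore uncertain in wt/wt. In dcat/dcat, RS number 2 with ES number 3 and RS number 3 with ES number 2 each correlated at 0.193. That pairing is uncertain for numbers 2 and 3 as well.

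**Figure D4:**
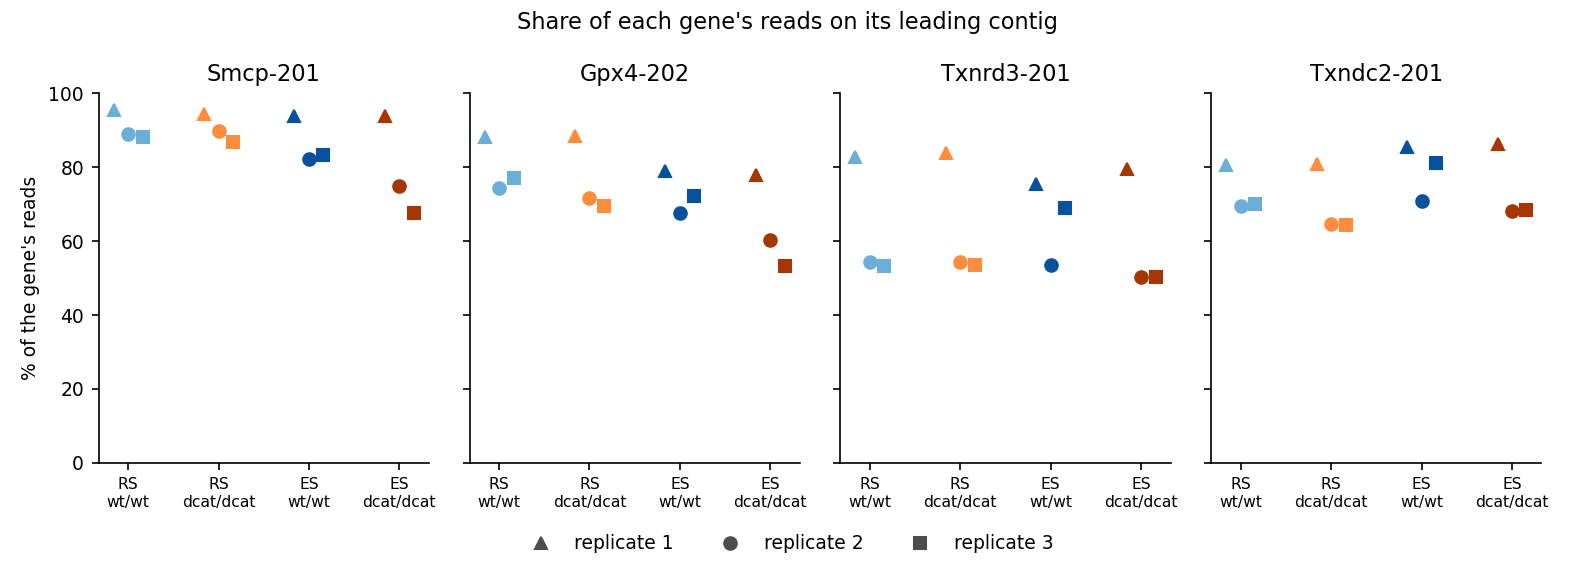
Percent of a gene's reads on its leading contig (y axis, 0 to 100) in each library of the 4 groups, for Smcp, Gpx4, Txnrd3 and Txndc2, with the replicate number as symbol. The triangles of replicate 1 are the highest in every group, for example 82.9% against 54.5% and 53.3% for Txnrd3 in RS wt/wt.

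The comparison of dcat/dcat with wt/wt asked whether loss of TENT5C activity moved these transcripts. In RS and in ES, 0 of the 13 contigs were called by edgeR, as were 0 of all 11831 (0%), and 0 had an unadjusted p under 0.05, beside 98 contigs in RS (0.828%) and 356 in ES (3.01%). DESeq2 called 0 of the 13 in both stages, beside 0 of all 11831 contigs in RS and 1 in ES. The log2 differences of the 13 contigs lay between -0.16 and 0.58 in RS, and between -0.43 and 0.69 in ES. The median was 0.06 in RS and 0.27 in ES, beside 0.01 for all contigs in both. For the summed genes in ES the differences were 0.07 for Smcp (SE 0.176), -0.29 for Gpx4 (SE 0.210), 0.08 for Txnrd3 (SE 0.176), -0.01 for Txndc2 (SE 0.231), -0.08 for Txndc8 (SE 0.206) and 0.34 for Prdx4 (SE 0.445).

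In ES, the values of Gpx4-202 and Smcp-202 depended on the libraries used. Gpx4-202 differed by -0.43 (SE 0.340, q 1.0), and without the libraries numbered 1 by -0.83 (SE 0.171, q 0.047), in a fit that called 5 of 10290 contigs. Leaving out single libraries gave -1.06 to -0.13 with no call, the lowest value without ES dcat/dcat library 1 and the highest without ES dcat/dcat library 3. In the contig fit without the libraries numbered 1, Gpx4-204 had a value of 0.55 (q 0.60) and Gpx4-ps2 of 0.43 (q 0.66). In the separate fit of gene sums without them, the edgeR value of the Gpx4 gene sum was -0.51 (unadjusted p 0.0036, q 0.67). For the Gpx4 gene sum with Gpx4-ps2 added and all libraries kept, the ES difference was -0.12 (q 1.0). Smcp-202 stood highest among the ES differences (0.69, SE 0.516, q 1.0), while Smcp-201 was at -0.06 and the gene sum at 0.07. Smcp-202 ranged from 0.26 without ES dcat/dcat library 3 to 1.10 without ES dcat/dcat library 1, and was 0.77 (q 0.28) without the libraries numbered 1. An unadjusted edgeR p under 0.05 was reached by 2 of the 13 contigs without ES dcat/dcat library 1, by 2 with the replicate number as a block, and by 3 without the libraries numbered 1. Over all contigs, 943 of 11759, 734 of 11831 and 753 of 10290 did so in these settings, beside 356 of 11831 in the main fit. Single contigs of Gpx4 and of Smcp thus had values of opposite sign within a gene.

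The stage by genotype interaction called 0 of the 13 contigs and 0 of all 11831 (0%). None of the 13 had an unadjusted p under 0.05, beside 170 of all contigs (1.44%), and their values ran from -0.27 to 0.58.

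**Figure D5:**
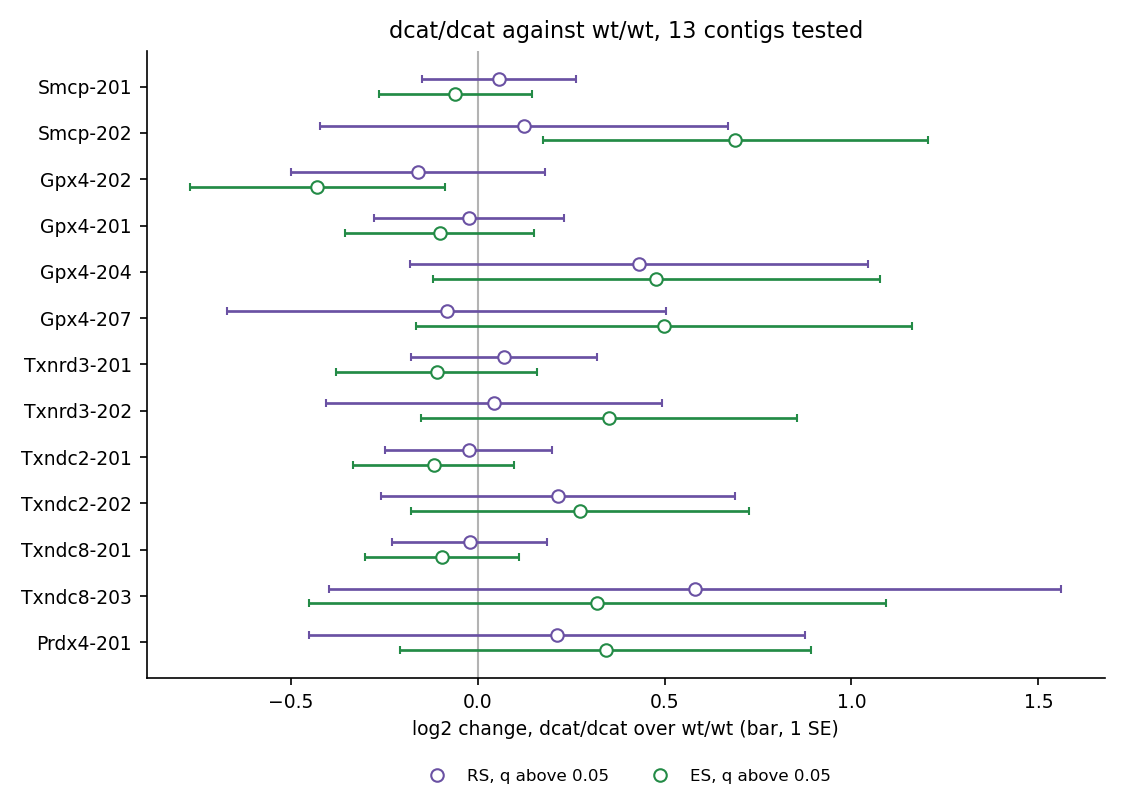
The log2 difference of dcat/dcat over wt/wt (x axis, bars 1 SE) of the 13 contigs tested, in RS (purple) and ES (green). All symbols are open, since no contig had q at or under 0.05, and the values lie between -0.43 and 0.69.

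Other genes of the thiol and selenium pathways moved both ways between the stages. In wt/wt, 5 contigs rose and 6 fell of the 20 tested in the thioredoxin and peroxiredoxin list (14 genes, median log2 -0.54), beside 23.8% and 16.5% of all contigs and a median of -0.24. Among those that rose were Srxn1, which repairs over-oxidised peroxiredoxins (2.22, q 5.8e-05), Prdx2 (2.34, q 0.00023) and the general thioredoxin Txn1 (4.60, q 0.0021). The RS wt/wt mean of Txn1, 0.394 CPM, lay under a floor of 3 counts (1.774 to 3.575 CPM in those libraries), so the size of its change is uncertain. Those that fell included Nxn, a nucleoredoxin (-1.28, q 0.0017, and -1.58 for a further contig, q 0.0047), and Prdx5, a peroxiredoxin of mitochondria and peroxisomes (-0.997, q 0.0069). The Nxn contig with -1.58 had -0.61 (q 0.19) in dcat/dcat.

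In the glutathione list 7 of 10 contigs rose and 0 fell (5 genes, median 1.59), and 6 of its 15 genes had a contig. Of all contigs 23.8% rose and 16.5% fell in wt/wt. Glrx2, a mitochondrial glutaredoxin, rose by 2.36 (q 5.6e-06) and by 3.72 in a further contig (q 0.00025), and Gpx6 by 1.28 (q 0.0055). The further Glrx2 contig averaged 1.145 CPM in RS wt/wt, under the floor of 3 counts. In the list of selenoproteins and selenocysteine insertion factors, without Gpx4 and Txnrd3, 3 of 17 contigs rose and 4 fell (14 genes, median -0.49). Selenok rose by 2.44 (q 1.4e-05) and 3.96 (q 0.0003) in its contigs and Selenov by 1.08 (q 0.034). The Selenok contig with 3.96 averaged 1.777 CPM in RS wt/wt, next to the floor of 3 counts. Selenos (-1.24, q 0.00023), Selenof (-1.07, q 0.00041) and Sephs2, the enzyme that makes selenophosphate (-0.75, q 0.014), fell.

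Of 8 contigs for oxidative folding in the endoplasmic reticulum, where Prdx4 acts, 1 rose and 3 fell (6 genes, median -0.71). The shares over all contigs were 23.8% and 16.5%. P4hb, protein disulphide isomerase, rose by 1.45 (q 0.023). Ero1b (-2.715, q 0.0065), Pdia3 (-0.72, q 0.0076) and Pdia6 (-1.015, q 0.014) fell. The ES wt/wt mean of Ero1b, 1.338 CPM, lay under the floor of 3 counts (5.707 to 10.59 CPM in those libraries). In dcat/dcat the values of P4hb (0.71, q 0.22) and Ero1b (-0.57, q 0.41) did not pass.

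Of 18 contigs of 9 genes for assembly of the mitochondrial sheath, 10 rose and 3 fell (median 1.53), beside 23.8% and 16.5% of all. Spata19, a mitochondrial protein of the spermatid, rose by 2.04 (q 8.6e-06) and 2.79 (q 1.5e-05) in its contigs, and Tbc1d21 by 1.66 (q 1.2e-05). Gk2, a glycerol kinase at the outer mitochondrial membrane (-1.21, q 9.3e-06), and the porins Vdac2 (-1.26, q 0.00011) and Vdac3 (-1.18, q 0.00012) fell, as Txnrd3 did. In dcat/dcat, 11 rose and 3 fell, beside 24.0% and 16.9% of all contigs. In the genotype and interaction comparisons 0 contigs of these 5 lists were called, like 0 of all contigs.

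The contigs most like each leading contig were found by the Pearson correlation of log2 CPM over the 12 libraries, given as a description. They were Rnf138 (r = 0.998) and Dnajb3 (0.997) for Smcp, Zfand4 (0.977) and Garin5a (0.975) for Gpx4, Pwwp3a (0.973) and Gsk3a (0.971) for Txnrd3, Actg2 (0.997) and Hmgb1-rs17 (0.997) for Txndc2, Ms4a5 (0.992) and Crisp2 (0.992) for Txndc8, and Actb (0.995) and Cep85l (0.992) for Prdx4. The libraries share stage, depth and composition, so many contigs reach such values: r was above 0.9 for 1472 contigs of other genes with Smcp, 1570 with Txndc2, 1462 with Txndc8 and 1060 with Prdx4, but 188 with Txnrd3 and 80 with Gpx4.

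The promoters of Smcp, Txndc2 and Txndc8 shared a word. RefSeq promoters of build GRCm38.p6, from 250 bases before to 50 bases after a start, were held for all 6 genes. The word TGATGTCA, 1 base away from the cyclic AMP response element TGACGTCA, was present on either strand in a promoter of Smcp, Txndc2 and Txndc8 and in none of Gpx4, Txnrd3 and Prdx4. It was picked after these promoters had been read. Of all 32851 promoters 3.62% hold it, and so do 4.18% of 27025 genes, while TGACGTCA is in 1.79% of promoters and in none of the 6 genes. The word, in capitals, starts 24 bases after the RefSeq start of Smcp, which is 52 bases before the start of Smcp-201. It starts 24 bases before the start of Txndc8 and, in reverse as TGACATCA, 129 bases before that of Txndc2. The windows are chr3:92589031-92589060, chr4:58009132-58009161 and chr17:65642315-65642344, all on the minus strand. A match is a description and not a binding site.
Smcp promoter: ggagagtattaTGATGTCAtaaaagagctg
Txndc8 promoter: gacccatccaaTGATGTCAtagaaaagtta
Txndc2 promoter: ggaagcctcatTGACATCAcaatgtcatca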

How the data were processed

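The authors aligned the nanopore reads with minimap2 (2.20-r1061 in the submitters' processing notes) to GENCODE vM17 transcripts on GRCm38. The deposited table holds counts of reads per contig, whole numbers without normalization, 1 column per library. Gene symbols came from tables the authors deposited. Their other columns hold the authors' own DESeq2 fold changes and adjusted p-values and were not used. Tail selection, the quality filter and assignment among similar transcripts act on the counts and cannot be undone. Positions and transcript sequences came from GENCODE vM21 on the same build.

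Counts were tested with edgeR 4.0.16 (R 4.3.3) by the quasi-likelihood test after TMM scaling, with 1 mean per group over all 12 libraries, for contigs that reached 10 reads in 2 or more libraries of some group. Calls have a Benjamini-Hochberg adjusted p (q) at or under 0.05 over all features tested. SE is the log2 change divided by the square root of F. A floor of 3 counts was 1.77 to 10.6 CPM (reads after TMM scaling to a common library size), for counting error only. DESeq2 1.42.0 was an alternative, as were other scalings, filters, sample sets and gene sums. The edgeR procedure was checked on simulated counts of independent libraries. They held no difference by replicate number and no shared animals, so the check does not cover these. Gpx4-ps2 was aligned with BLAST+ 2.17.0.

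Members, lists and tests were chosen with earlier results of these data known. All member contigs are named, with up to 3 risen and 3 fallen contigs of smallest q per list in wt/wt, and the 2 contigs most like each leading contig. The methods do not tie replicate numbers to animals or sessions. Equal numbers were read as pairs where every pair's deviations correlated above 0.1. This held for RS wt/wt with RS dcat/dcat (0.696, 0.385 and 0.467) and for RS with ES in dcat/dcat (0.519, 0.252 and 0.291). It did not hold for ES wt/wt with ES dcat/dcat (0.034 for number 3) or RS with ES in wt/wt (-0.095 for number 3). Numbers 2 and 3 crossed also lay above 0.1 in the groups where it held. They were at 0.271 and 0.231 between genotypes in RS, and at 0.193 both ways between stages in dcat/dcat. The rule thus set number 1 apart and did not tell number 2 from number 3.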

Additional observations from a re-analysis of the deposited data

How the results depend on the processing

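In both genotypes 11 of the 13 member contigs were called between stages, and leaving out single libraries gave 8 to 11. Of all 11831 contigs, 4766 were called in wt/wt and 4849 in dcat/dcat. With single libraries left out, 3332 of 11719 to 4874 of 11759 were called in wt/wt. In dcat/dcat these counts ran from 3594 of 11574 to 4975 of 11078. Summed by gene, all 6 genes were called, also with the replicate number as a block, without the libraries numbered 1, and with Gpx4-ps2 added (6 in each case, chosen after seeing the data). Over all sums, 3776 of 7706 were called in wt/wt and 3794 in dcat/dcat. With the block these were 4110 and 4123, with Gpx4-ps2 added 3775 and 3794, and without the libraries numbered 1 3057 and 3147 of 6789. The replicate block gave 12 member contigs in each genotype, beside 6105 of all 11831 contigs in wt/wt and 6145 in dcat/dcat. In this block fit, as without the libraries numbered 1 and with total counts only, Txnrd3-202 passed. In wt/wt Txnrd3-202 also passed without RS wt/wt library 1 (-1.21, edgeR q 0.0491), where the call of Txnrd3-201 was lost. The robust fit called 10 member contigs in wt/wt and 9 in dcat/dcat, beside 4735 and 4820 of all 11831. Total counts only called 9 in each (7 higher, 2 lower), beside 7364 and 6959 of all, with Gpx4-202 at 0.44 (q 0.23) in wt/wt and 0.19 (q 0.61) in dcat/dcat.

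Gpx4-207 in wt/wt turned to -0.36 with total counts only, and ranged from -0.66 to 0.75 when single libraries were left out. Smcp-202 in RS ranged from -0.31 to 0.56 between genotypes. The Txnrd3 share moved between -5.57 and 4.31 percentage points. Between genotypes in ES, 1 member contig was called without the libraries numbered 1, Gpx4-202 at -0.83, beside 5 of all 10290 contigs. Single libraries left out gave 0 calls in each genotype comparison and in the interaction, among the members and over all contigs alike. With stage exchanged within genotype and replicate number (a replicate block of 64 arrangements), the shares of Smcp, Gpx4 and Txndc2 had an exact p of 0.031, adjusted 0.062. The pairing of RS with ES by number is uncertain in wt/wt, and for numbers 2 and 3 in dcat/dcat. The causes were not tested.

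Shares within wt/wt or dcat/dcat alone could not pass any threshold (smallest p 0.1). Depth limited Gpx4-207, Txndc8-203 and Prdx4-203, with 121, 72 and 31 reads in all.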
